A study of Mus musculus with 21 samples.

Results

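Border zone tissue of infarcted mouse hearts was compared with border zone tissue of sham-operated hearts, gene by gene, in 7 of the 21 RNA-seq libraries of a study of mouse heart repair. The members were chosen by their labels: 4 libraries labelled MI (myocardial infarction) and 3 labelled sham, every one of wild-type genotype (WT), of border zone tissue (the muscle next to an infarct) and of day 7. A further 8 heart libraries were not themselves compared. They were 4 of WT mice with MI and FAPI (read from the series title as an inhibitor of the protease Fap) and 4 of FapKO mice with MI. These 8 took part in the choice of genes tested, the scaling of counts and the estimate of each gene's spread. The study asked whether Fap regulates cardiac repair after infarction. The comparison below shows how border zone libraries of infarcted hearts, without inhibitor or knockout, differed from those of sham hearts. Strain, age, sex, the way the infarct was made and which wall a sham border zone came from were not stated in the sources available for this work. The labels do not say that each library came from its own mouse, so the p-values measure the spread between libraries, which are called hearts below.

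When a coronary artery is blocked, the muscle behind the blockage dies, and the heart of a mammal does not replace it but builds a scar. Neutrophils and then monocytes enter first, macrophages clear the dead cells, and fibroblasts divide, become matrix-producing and contractile cells and lay down collagen. Cardiomyocytes that survive at the edge live on fatty acid oxidation in health and are known to switch on genes of the fetal heart under strain.

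Counts were scaled with TMM (trimmed mean of M-values), which assumes that most genes do not differ, and levels are given as CPM, the count of a gene rescaled to a library of fixed total size. A log2 fold change is the MI level over the sham level on a log2 scale, so that 0 is no difference. A gene was called higher or lower when edgeR's quasi-likelihood test gave a Benjamini-Hochberg adjusted p under 0.05 over the 17064 genes tested. By that rule 69.1% of all genes tested were called, 37.1% higher and 32.0% lower, in MI hearts, and the median log2 fold change was 0.14. A call alone therefore says little here, and sizes are given throughout: 8.12% of all genes were called higher with a log2 fold change above 2, and 7.51% were called lower with one below -2. Beyond 3 on either side the shares were 1.73% and 2.55%. The assumption behind TMM matters in these hearts, because a few muscle and mitochondrial genes fill much of a sham library. Scaling by total counts instead added 1.08 to the median log2 fold change, which then was 1.23, and 74.2% of genes were called higher and 11.9% lower. Small falls under TMM turn into rises on that scale. The lists for which this happens are given below, as are the called genes among those that this text names. Other genes turn as well and are not listed. Adding each heart's level of cardiomyocyte markers to the model left 534 genes called higher and 244 called lower. That level separated the MI hearts from the sham hearts completely, so the loss of muscle transcripts and infarction cannot be told apart by that fit.

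Some libraries stood apart. MI replicate 2 carried skeletal muscle transcripts, with 244 CPM of Tnnt3 and 293 CPM of Mylpf, against at most 28.6 and 20.5 CPM in any other of the 7 hearts. MI replicate 3 kept the largest share of cardiomyocyte transcripts and held 48.3 CPM of the atrial light chain gene Myl7, while the atrial marker Bmp10 was at 0 to 0.0619 CPM in every heart. MI replicate 4 held most of the immunoglobulin transcripts. Sham replicate 2 held 51.9 CPM of the airway gene Scgb1a1, against at most 0.739 CPM elsewhere, although Sftpc, another lung gene, stayed at or under 0.116 CPM. Results that rest on 1 of these libraries are given with and without it.

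Muscle and mitochondrial genes took a smaller share of the counts in MI hearts and collagen genes a larger one (plot of shares of counts). The 76 nuclear genes of the respiratory chain took 5.87 ± 1.14% in MI hearts and 21.05 ± 2.02% in sham hearts (SD, n = 4 and 3), the largest difference of the 6 classes in percentage points (-15.2). The 21 cardiomyocyte marker genes took 2.40, 2.32, 5.46 and 3.06% of the counts in MI hearts, against 9.58, 9.91 and 9.03% in sham hearts. The 37 mitochondrially encoded genes took 4.18, 4.92, 8.03 and 5.28% of the counts in MI hearts, against 15.2, 16.3 and 19.6% in sham hearts. The 44 collagen genes took 2.17, 3.12, 1.65 and 1.89% of the counts in MI hearts, against 0.141, 0.186 and 0.187% in sham hearts, a 12.9-fold higher mean share. All 4 MI hearts lay below all sham hearts for muscle and mitochondria and above them for collagen. In a border zone sampled whole, fewer muscle cells and less RNA per muscle cell cannot be told apart, and neither can more fibroblasts and more collagen RNA per fibroblast. The 50 cytosolic ribosomal protein genes took a larger share, 3.39 ± 0.27% in MI hearts against 1.69 ± 0.06% in sham hearts (SD, n = 4 and 3), although their median log2 fold change on the TMM scale was 0.01. The 50 genes most abundant over the 7 hearts took 24.8 ± 2.4% of the counts in MI hearts and 39.0 ± 1.4% in sham hearts. With 4 hearts against 3, an exact two-sided permutation test cannot go below p = 0.0571, and each of the 6 shares compared reached that value, also after adjustment over the 6.

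**Figure D1:**
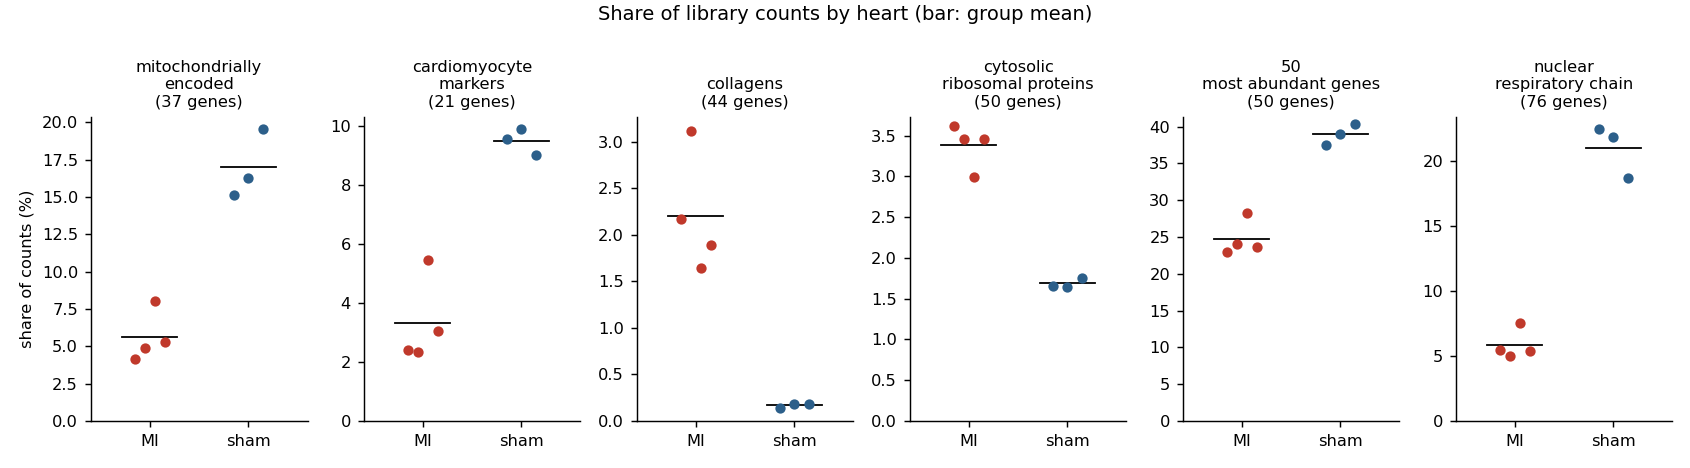
Share of each library's counts, in percent, taken by 6 classes of genes, with 1 point for each heart, MI left of sham, and a bar at each group mean. Collagens took 1.65 to 3.12% in MI hearts and at most 0.187% in sham hearts, while cardiomyocyte markers took at most 5.46% in MI hearts and at least 9.03% in sham hearts.

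All 21 cardiomyocyte markers fell, with log2 fold changes of -3.80 to -1.40 and a median of -3.21. Tnni3, the adult cardiac troponin I, had 1208, 1014, 3001 and 1370 CPM in MI hearts, against 22844, 22549 and 18343 CPM in sham hearts, and its log2 fold change was -3.69 ± 0.34 (SE; edgeR adjusted p = 7.9e-08). Myh6, the main myosin motor of the adult mouse ventricle, had 142, 158, 362 and 134 CPM in MI hearts, against 2530, 2544 and 2732 CPM in sham hearts (log2 fold change -3.71 ± 0.33). Both genes were highest among MI hearts in replicate 3, and no MI heart reached a sham heart. Other markers fell far less. Tnnt2, the cardiac troponin T, had 4430, 3728, 12183 and 6207 CPM in MI hearts, against 20777, 20010 and 18920 CPM in sham hearts (log2 fold change -1.58 ± 0.33, edgeR adjusted p = 0.00043). The actin gene Actc1 fell by 1.56, the giant spring protein gene Ttn by 1.83, the thick filament regulator Mybpc3 by 1.44 and the calcium release channel gene Ryr2 by 1.40 on the log2 scale. Without MI replicate 3 the log2 fold change of Mybpc3 was -2.08.

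The uneven fall can be put without reference to any scaling by setting each gene against the mean log2 level of the 21 markers in the same heart. These markers include Tnni3, Myh6, Tnnt2, Actc1 and Pln themselves, so their spread around that mean is a description. On this cardiomyocyte-referenced scale the log2 fold change was 1.18 for Tnnt2 and 1.25 for Actc1, against -0.92 for Myh6, -0.91 for Tnni3 and -0.68 for Pln. The median over all 17064 genes on the same scale was 3.12, with 93.6% of genes called higher and 1.18% called lower.

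Of 28 thick and thin filament genes tested, 11 were higher, 13 lower and 4 passed neither way, with a median log2 fold change of -0.47 that became 0.67 with total-count scaling. The ventricular light chains Myl2 and Myl3 fell by 3.42 and 3.66 on the log2 scale. The higher members included genes of smooth muscle and non-muscle cells, among them Actg2 (log2 fold change 3.15), Tpm2 (2.08), Myl9 (1.95), Myh10 (1.62), Myh11 (1.58) and Acta2 (1.27). They also included 2 genes of striated muscle, the atrial light chain gene Myl4 (1.88) and the fetal troponin I gene Tnni1 (2.62), and both lost their call without MI replicate 2 (1.03 and 0.49). Z-disc and costamere genes, which anchor the filaments, were lower in 19 of 30, higher in 1 and past neither threshold in 10, with a median of -1.34 (total-count scaling, -0.29), and 2 were higher without MI replicate 1, 2 or 4 or without sham replicate 2. Tcap, a cap on titin, fell by 3.35. Des, the gene of the intermediate filament desmin, averaged 1172 ± 765 CPM in MI hearts and 909 ± 79.3 CPM in sham hearts (SD, n = 4 and 3), with overlapping groups and no call. The 1 higher member was Ankrd1, a stretch-responsive repressor protein, with 2515 ± 964 CPM in MI hearts and 1529 ± 329 CPM in sham hearts. Its log2 fold change of 0.72 lost its call without MI replicate 3, without sham replicate 1 and without sham replicate 3.

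Calcium handling genes fell in 16 of 24 tested, rose in 4 and passed neither way in 4, with a median log2 fold change of -1.42. Without sham replicate 1 or 3, 2 were higher. Atp2a2, the pump that refills the sarcoplasmic reticulum, had 127, 134, 234 and 183 CPM in MI hearts, against 1524, 1305 and 1511 CPM in sham hearts, and fell by 3.10 ± 0.26 (SE). Pln, the inhibitor of that pump, fell by 3.58 ± 0.22, and the luminal calcium buffer genes Hrc and Casq2 by 3.92 and 2.54. The pump to inhibitor ratio, Atp2a2 over Pln, was 0.885 to 1.09 per kilobase of exon in MI hearts and 0.621 to 0.888 in sham hearts, with overlapping groups.

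Ion channel and gap junction genes were lower in 27 of 29 tested, with a median log2 fold change of -1.94. Kcnip2, the subunit that shapes the fast transient outward potassium current, had 1.70, 2.14, 3.67 and 2.08 CPM in MI hearts, against 58.8, 52.8 and 61.3 CPM in sham hearts. That 24.0-fold lower level (edgeR adjusted p = 2.1e-09) was the largest fall of the list, and its cardiomyocyte-referenced log2 fold change was still -1.73. The atrial and nodal potassium channel gene Kcnj3 fell by 3.77 and the energy-sensing channel gene Kcnj11 by 2.87. Gja1, which encodes connexin 43, the main gap junction protein of the ventricle, had 70.9, 52.2, 127 and 74.4 CPM in MI hearts and 309, 282 and 276 CPM in sham hearts, a fall of 1.83 ± 0.23. Relative to the cardiomyocyte markers Gja1 was higher, by 1.01, so it fell less than those markers. The median of all genes on that scale was 3.12. The 1 higher member was Gja5, the connexin 40 gene of atria, conduction fibres and arteries (log2 fold change 1.36).

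Signalling receptors of the muscle followed. Of 22 beta-adrenergic and muscarinic genes, 12 were lower, 4 higher and 6 past neither threshold, with a median log2 fold change of -0.65 (0.42 with total-count scaling). Adrb1, the main cardiac beta receptor, had 1.70, 1.75, 3.61 and 2.89 CPM in MI hearts, against 6.84, 8.43 and 8.13 CPM in sham hearts, and Chrm2, the cardiac muscarinic receptor, fell by 2.00 on the log2 scale. Adrb3, a beta receptor known from fat, averaged 1.3 ± 0.23 CPM in MI hearts and 0.0871 ± 0.0379 CPM in sham hearts (SD, n = 4 and 3). Cardiac transcription factor genes were lower in 20 of 24, with a median of -1.93. Ppargc1a, the coactivator of mitochondrial genes, had 6.56, 6.96, 14.7 and 9.21 CPM in MI hearts, against 88.2, 97.1 and 115 CPM in sham hearts (log2 fold change -3.42 ± 0.26, edgeR adjusted p = 1.2e-08). Its partners Ppara and Esrra fell by 3.34 and 2.23. The lineage factors Gata4 and Nkx2-5 fell by 1.24 and 1.89, and relative to the cardiomyocyte markers they were higher by 1.61 and 0.87. Both lay below the median of all genes on that scale, 3.12, where 93.6% of genes were called higher. Tbx20 was the 1 higher member, with 32.2 ± 4.4 CPM in MI hearts and 17.3 ± 2.8 CPM in sham hearts (SD, n = 4 and 3).

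Genes known to answer stretch and stress were mixed: 14 of 28 were higher, 3 lower and 11 past neither threshold, with a median log2 fold change of 0.88. Without MI replicate 3 the median was 0.46 and 5 were lower, and without MI replicate 2, sham replicate 1 or sham replicate 2 only 1 was lower. Nppa, the atrial natriuretic peptide, had 778, 610, 752 and 282 CPM in MI hearts, against 135, 206 and 151 CPM in sham hearts (log2 fold change 1.89 ± 0.33, edgeR adjusted p = 8.7e-05). Nppb, the B-type peptide named in the study's title as BNP, had 49.8, 25.2, 147 and 71.9 CPM in MI hearts and 31.0, 47.6 and 63.2 CPM in sham hearts. The Nppb groups overlapped and no call was made (log2 fold change 0.63 ± 0.53, edgeR adjusted p = 0.30). Of the proteins that act on these peptides, Corin, the protease that activates them, fell by 1.77 ± 0.32, Mme, which degrades them, fell by 1.14 ± 0.27, and the receptor genes Npr1 and Npr3 passed in neither direction (log2 fold changes 0.14 and 0.32). Ccn2, a matrix-linked gene of the same stress list, rose by 2.40.

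Muscle isoforms were compared as ratios of 2 genes within a library, per kilobase of exon, which no library scaling can change (plot of ratios by heart). Of 28 pairs of isoforms and markers, 21 had groups that did not overlap, and of all genes tested singly 67.5% did not. The smallest two-sided p of the exact permutation test, 0.0571, became 0.0762 after adjustment over the 28, so no ratio could pass. Myh7 over Myh6, the slow fetal over the fast adult myosin of the mouse, was 0.0642, 0.0950, 0.0982 and 0.0930 in MI hearts, against 0.0122, 0.0140 and 0.0145 in sham hearts, a 6.39-fold higher geometric mean. Myh7 itself averaged 23.1 ± 15.3 CPM in MI hearts and 45.2 ± 5.6 CPM in sham hearts, so Myh7 was not higher itself, and it overlaps the antisense gene Mhrt, whose reads could not be told apart. The fall of Myh7 lost its call when any 1 heart other than MI replicate 3 was left out, and its log2 fold change became 0.07 with total-count scaling. Tnni1 over Tnni3, the fetal over the adult troponin I, was 40.9-fold higher (18.4-fold without MI replicate 2), with MI replicate 2 at 0.0287 and the other MI hearts at 0.000817 to 0.00165, against at most 8.55e-05 in sham hearts. The numerator Tnni1 had 50.8 CPM in MI replicate 2 and 2.89 to 4.26 CPM in the other MI hearts, against 1.31 to 3.33 CPM in sham hearts, and its log2 fold change of 2.62 became 0.49 without MI replicate 2, with its call also lost without any 1 sham heart. Acta1 over Actc1, the skeletal over the cardiac alpha-actin, was 2.70-fold higher (1.92-fold without MI replicate 2). MI replicate 2 was at 0.221 and the other MI hearts at 0.0524 to 0.0643, with all sham hearts at 0.0352 or below.

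**Figure D2:**
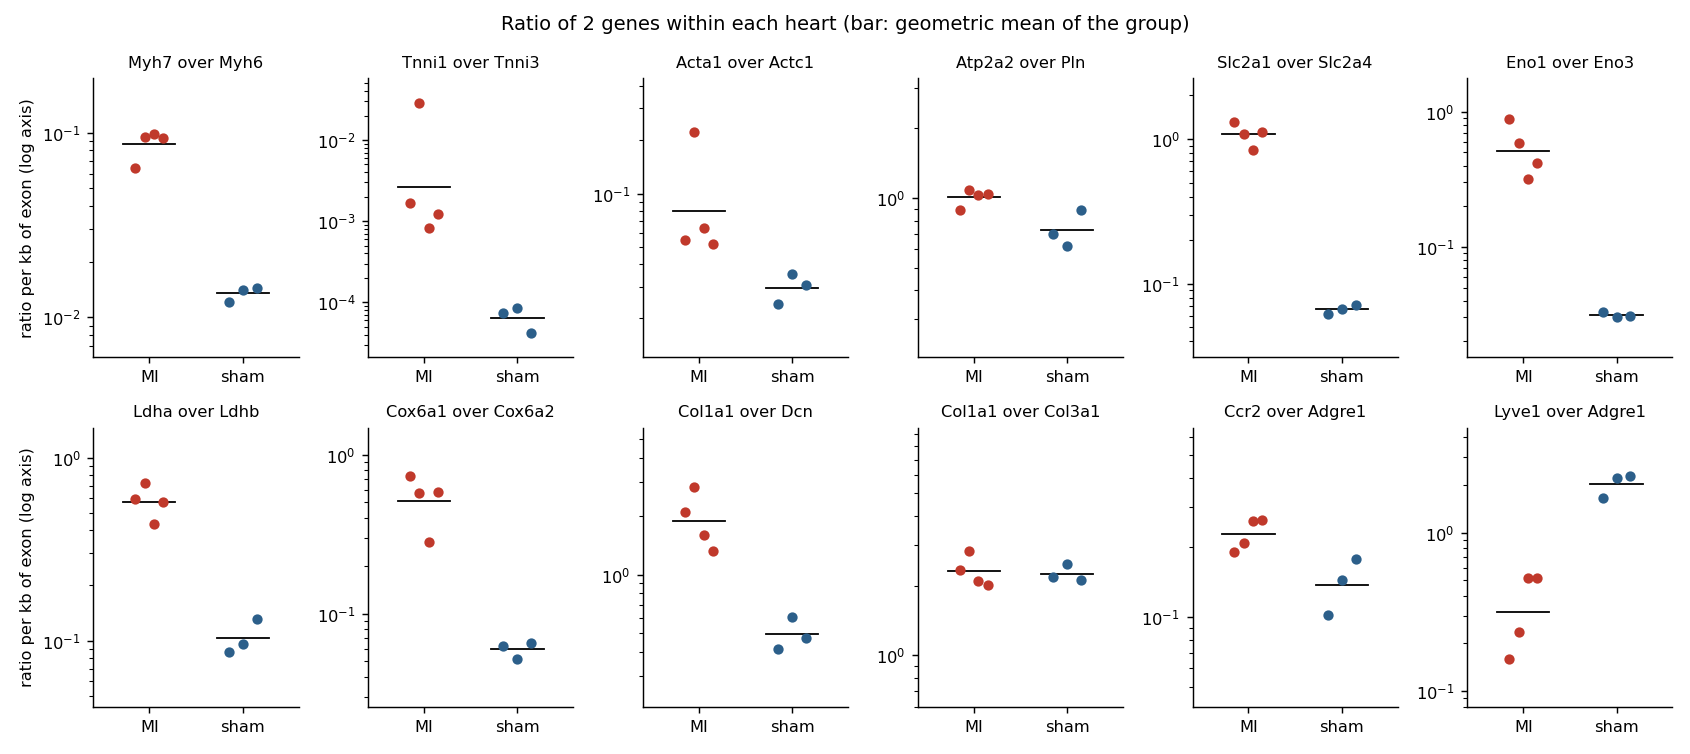
Ratio of 2 genes within each library, per kilobase of exon, on a log axis, for 12 of the 28 pairs, with 1 point for each heart, MI left of sham. Slc2a1 over Slc2a4 lay at 0.841 to 1.31 in MI hearts and 0.0622 to 0.0708 in sham hearts, and the 2 groups overlapped for Atp2a2 over Pln and for Col1a1 over Col3a1.

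Fatty acid oxidation genes were lower in 28 of 29 tested (median log2 fold change -2.81), and genes of the tricarboxylic acid cycle in 22 of 23 (median -2.84). Nuclear genes of respiratory complex I were lower in 37 of 38 (median -2.83), those of complexes III to V in 38 of 38 (median -2.86) and mitochondrial ribosomal protein genes in 57 of 57 (median -1.76). With total-count scaling these 5 medians were -1.74, -1.77, -1.76, -1.80 and -0.68. The fuel enzyme Acadm, which oxidises medium-chain fatty acids, had 145, 115, 254 and 155 CPM in MI hearts, against 2285, 2266 and 1665 CPM in sham hearts, and fell by 3.63 ± 0.27. Acaa2, the last enzyme of the cycle, fell by 3.99, Cpt2, which takes fatty acids into the mitochondrion, by 3.11, and Cd36, a fatty acid carrier of the cell surface, by 2.09. Cs, citrate synthase, had 57.7, 53.8, 99.1 and 67.9 CPM in MI hearts, against 471, 479 and 425 CPM in sham hearts, and Idh2 fell by 3.55. Cox7a1, the muscle form of a cytochrome oxidase subunit, had 609, 555, 1093 and 612 CPM in MI hearts, against 14516, 14862 and 10369 CPM in sham hearts (log2 fold change -4.21 ± 0.30, edgeR adjusted p = 7.6e-09). In each of these 7 genes MI replicate 3 was the highest MI heart, and no MI heart reached a sham heart.

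Against the cardiomyocyte markers the energy genes did not fall further as groups. The cardiomyocyte-referenced median was 0.10 for fatty acid oxidation, -0.01 for the tricarboxylic acid cycle, 0.08 for complex I and 0.04 for complexes III to V, where the markers that belong to a list were left out of it. In this reading 16 of 28 fatty acid oxidation genes, 19 of 23 cycle genes and 28 of 38 complex I genes passed in neither direction. Members still below the markers were Cox7a1 (log2 fold change -1.33), Acaa2 (-1.05) and Acadm (-0.76). Mitochondrial ribosomal protein genes were higher than the markers in 55 of 57, with a median of 1.19. Of all genes tested 93.6% were called higher on that scale, with a median of 3.12, so this count is not particular to them. Since 3 of the markers, Cox6a2, Cox8b and Fabp3, are themselves energy genes, the reference is not free of them.

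The transcripts made in the mitochondrion fell with the nuclear ones. Of 9 mitochondrially encoded protein genes tested, 8 were lower, with a median log2 fold change of -2.67. The cytochrome b gene mt-Cytb had 9109, 7608, 16764 and 10152 CPM in MI hearts, against 62909, 63187 and 60148 CPM in sham hearts, and mt-Nd6 fell by 2.99. The exception mt-Nd3 had a log2 fold change of 0.99 that lost its call without MI replicate 3 and without sham replicate 1.

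Of 39 genes of glucose uptake and glycolysis, 27 were lower, 8 higher and 4 past neither threshold, with a median log2 fold change of -1.30 (-0.21 with total-count scaling). In each pair below of a ubiquitous and a muscle form, the muscle form fell by more. The insulin-responsive carrier Slc2a4 had 10.4, 11.0, 25.5 and 14.3 CPM in MI hearts, against 137, 132 and 133 CPM in sham hearts, while the basal carrier Slc2a1 had 13.8, 12.0, 21.6 and 16.0 CPM in MI hearts, against 8.56, 8.95 and 9.44 CPM in sham hearts. Slc2a1 over Slc2a4 was thus 16.1-fold higher. The ubiquitous over the muscle form was 16.4-fold higher for enolase (Eno1 over Eno3) and 8.68-fold higher for phosphofructokinase (Pfkp over Pfkm). Cox6a1, which fell on the TMM scale and had a log2 fold change of 0.52 with total-count scaling, was 8.60-fold higher over Cox6a2. The ratio was 6.56-fold higher for Cox8a over Cox8b and 2.87-fold higher for Cox7a2 over Cox7a1, and lactate dehydrogenase A over B (Ldha over Ldhb) was 5.56-fold higher. In all of these ratios the MI and sham hearts did not overlap. The lactate dehydrogenase pair is not one of a ubiquitous and a muscle form, and there Ldha fell by 1.10 and Ldhb by more. In the other pairs the muscle gene was the one that differed most, and Eno1 and Pfkp were not called (log2 fold changes 0.29 and 0.23). Fbp2, the muscle fructose bisphosphatase, fell most, to 1.76, 1.78, 2.40 and 2.27 CPM in MI hearts, against 76.2, 95.0 and 65.8 CPM in sham hearts (log2 fold change -5.27 ± 0.24, edgeR adjusted p = 2.1e-10). Slc16a3, the lactate exporter, rose by 1.69 and Pdk3, a kinase that turns off pyruvate dehydrogenase, by 1.61. Ketone body and branched-chain amino acid genes were lower in 16 of 20, among them Oxct1, the entry enzyme of ketone use (fell by 2.27), and Bcat1 was the 1 higher member (log2 fold change 2.14).

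**Figure D3:**
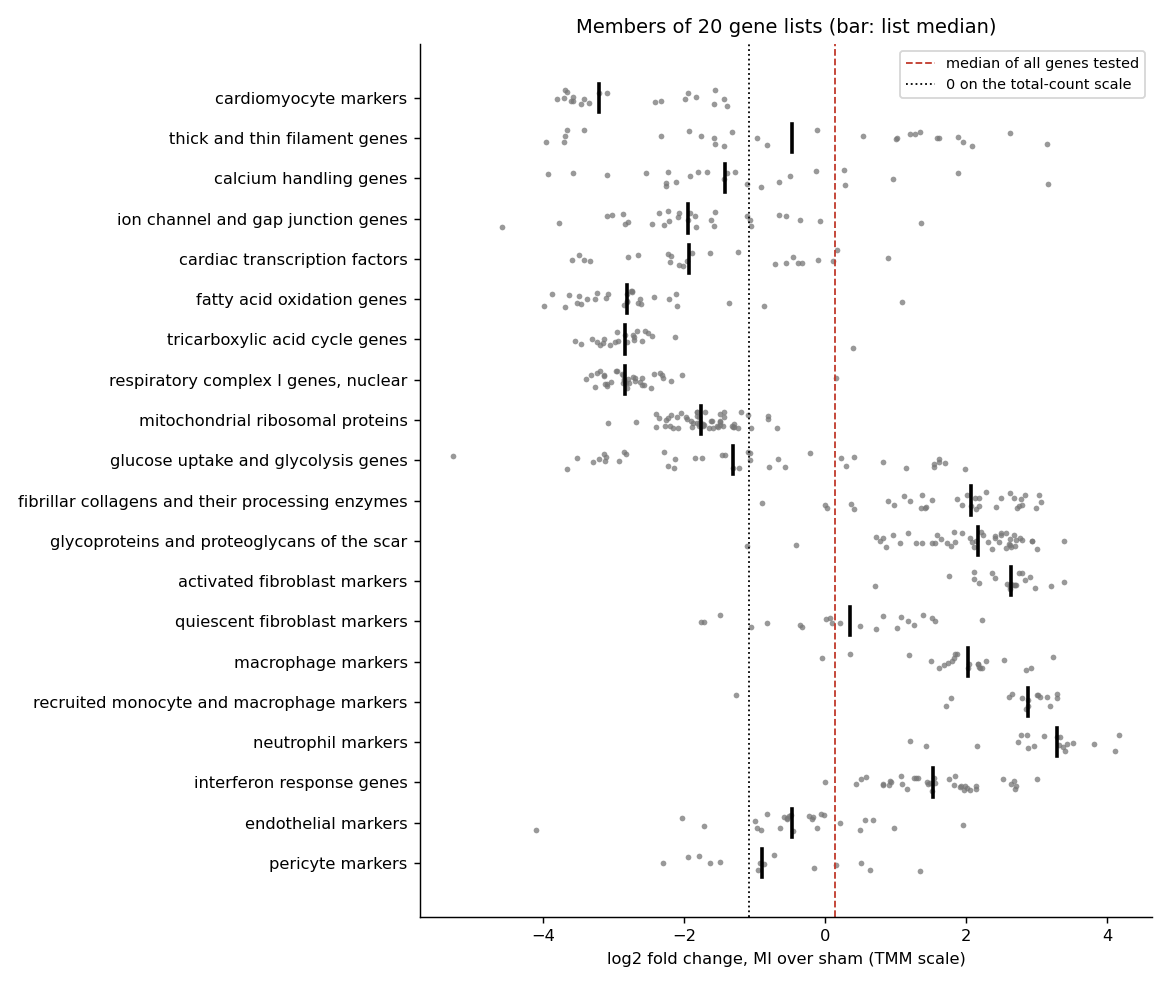
Log2 fold change of MI over sham for each tested member of 20 gene lists, with 1 point per gene and a bar at the list median, on the TMM scale. The dashed line marks the median of all 17064 genes, 0.14, and the dotted line marks 0 on the total-count scale, which lies 1.08 below that of the TMM scale. The medians of the mitochondrial energy lists lie below both lines and those of the matrix, neutrophil and recruited macrophage lists above them.

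Fibrillar collagens and their processing enzymes were higher in 31 of 35 tested, lower in 1 and past neither threshold in 3, with a median log2 fold change of 2.06. Col1a1 had 4822, 6989, 4073 and 3718 CPM in MI hearts, against 647, 896 and 751 CPM in sham hearts (log2 fold change 2.68 ± 0.29, edgeR adjusted p = 4.6e-07). Col3a1, the type III collagen of early scars, had 3081, 3686, 2899 and 2751 CPM in MI hearts, against 445, 543 and 532 CPM in sham hearts (log2 fold change 2.62 ± 0.17). The 2 moved together: Col1a1 over Col3a1 was 2.02 to 2.84 in MI hearts and 2.11 to 2.47 in sham hearts. Lox, which cross-links collagen, rose by 2.83 ± 0.18, P4ha3, a prolyl hydroxylase, by 3.03 ± 0.38, and Serpinh1, the collagen chaperone, by 1.21 ± 0.24. The minor fibrillar collagen gene Col11a1 averaged 85.2 ± 30.7 CPM in MI hearts and 10.8 ± 1.5 CPM in sham hearts (SD, n = 4 and 3). Other collagens were higher in 21 of 28, with Col8a1 at 609 ± 107 CPM in MI hearts and 90.7 ± 13.5 CPM in sham hearts, while Col4a1 of the basement membrane rose by 1.55 and Col6a1 by 1.30.

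Glycoproteins and proteoglycans of the scar were higher in 44 of 48 tested, with a median log2 fold change of 2.17. Cthrc1, a secreted marker of the fibroblasts that make scar, had 1439, 994, 576 and 930 CPM in MI hearts, against 82.1, 115 and 86.4 CPM in sham hearts (log2 fold change 3.38 ± 0.30, edgeR adjusted p = 6e-08). Postn, periostin, had 1238, 1436, 785 and 1062 CPM in MI hearts, against 152, 198 and 175 CPM in sham hearts (log2 fold change 2.69 ± 0.21). Both were lowest among MI hearts in replicate 3, the heart with the largest muscle share, and every MI heart lay above every sham heart. Fibronectin, Fn1, rose by 2.79, the cartilage protein gene Comp by 2.61, elastin, Eln, by 2.50, tenascin C, Tnc, by 2.41 and the mineral-binding protein gene Sparc by 1.93. The small proteoglycan gene Dcn, decorin, rose by 0.71, with 2251 ± 190 CPM in MI hearts and 1372 ± 48 CPM in sham hearts, so that Col1a1 over Dcn was 1.32 to 2.84 in MI hearts and 0.415 to 0.604 in sham hearts. Emilin2 was the 1 lower member (fell by 1.10). Its fall was 0.02 with total-count scaling. Basement membrane genes were higher in 14 of 19 and lower in 3 (1 without sham replicate 3), and Lamb3, a laminin chain of epithelia, was the exception in size, with 1.78 to 2.46 CPM in MI hearts and 35.8 to 44.0 CPM in sham hearts.

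Metalloproteinase and ADAM genes were higher in 28 of 34 tested and lower in 2, with a median log2 fold change of 1.63. Mmp14, the membrane collagenase that activates gelatinase A, had 238, 314, 174 and 199 CPM in MI hearts, against 31.2, 30.3 and 30.1 CPM in sham hearts (log2 fold change 2.92 ± 0.26), and its substrate gene Mmp2 rose by 1.67. Mmp15 fell by 2.61. Timp1, a metalloproteinase inhibitor, rose by 2.71, with 236 to 347 CPM in MI hearts and 35.1 to 52.5 CPM in sham hearts, while Timp4, the inhibitor known from heart muscle, fell by 4.08, with 3.02 to 5.69 CPM in MI hearts and 56.4 to 87.7 CPM in sham hearts. Timp1 over Mmp2 was 3.83 to 7.00 in MI hearts and 2.08 to 3.02 in sham hearts.

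Fap, the target of the study and a serine protease of activated fibroblasts, had 11.1, 13.2, 9.40 and 11.0 CPM in MI hearts, against 2.71, 3.40 and 3.86 CPM in sham hearts (log2 fold change 1.75 ± 0.18, edgeR adjusted p = 3.1e-07). All 22 activated fibroblast markers rose. Their log2 fold changes had a median of 2.63 and a range of 0.70 (Meox1) to 3.38 (Cthrc1). Runx1, a transcription factor, rose by 2.63 and the secreted Wnt antagonists Sfrp1 and Sfrp2 by 2.90 and 3.20. Of 22 markers of resting (quiescent) fibroblasts, 11 were higher, 6 lower and 5 past neither threshold, with a median of 0.35. With total-count scaling 17 were higher and 3 lower, with a median of 1.42. That is near all genes tested on that scale, of which 74.2% were called higher and 11.9% lower, with a median of 1.23. The summed TMM-scaled level of the resting markers was 4990 to 5551 CPM in MI hearts and 4215 to 4260 CPM in sham hearts, so the MI hearts lay above the sham hearts. Pdgfra, the surface receptor that marks cardiac fibroblasts, had 15.7, 16.7, 17.8 and 17.5 CPM in MI hearts, against 8.19, 7.90 and 7.93 CPM in sham hearts (log2 fold change 1.08 ± 0.11). Gsn, an actin-severing protein gene of resting fibroblasts, fell to 384 ± 31 CPM in MI hearts, against 1265 ± 53 CPM in sham hearts. Vtn fell by 1.49.

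Each fibroblast gene was also set against the mean level of 8 broad fibroblast markers (Pdgfra, Dcn, Lum, Col1a2, Pdgfrb, Mmp2, Ddr2 and Bgn). On that scale the median of all genes was -1.43, and 4.25% of all genes were called higher and 75.1% lower. Of the 22 activated markers, 19 were higher, 1 lower and 2 past neither threshold, with a median of 1.05. Of 19 resting markers outside the reference 0 were higher in edgeR, also at an unadjusted p under 0.05, and 15 were lower, with a median of -1.49. Fap lay close to the reference genes, with a log2 fold change of 0.17 ± 0.15. Postn over Pdgfra was 50.7 to 99.3 in MI hearts and 21.4 to 28.7 in sham hearts, and Fap over Pdgfra was 0.935 to 1.41 in MI hearts and 0.590 to 0.866 in sham hearts, so both ratios were apart between the groups, Postn's by 3.01-fold and Fap's by 1.59-fold.

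**Figure D4:**
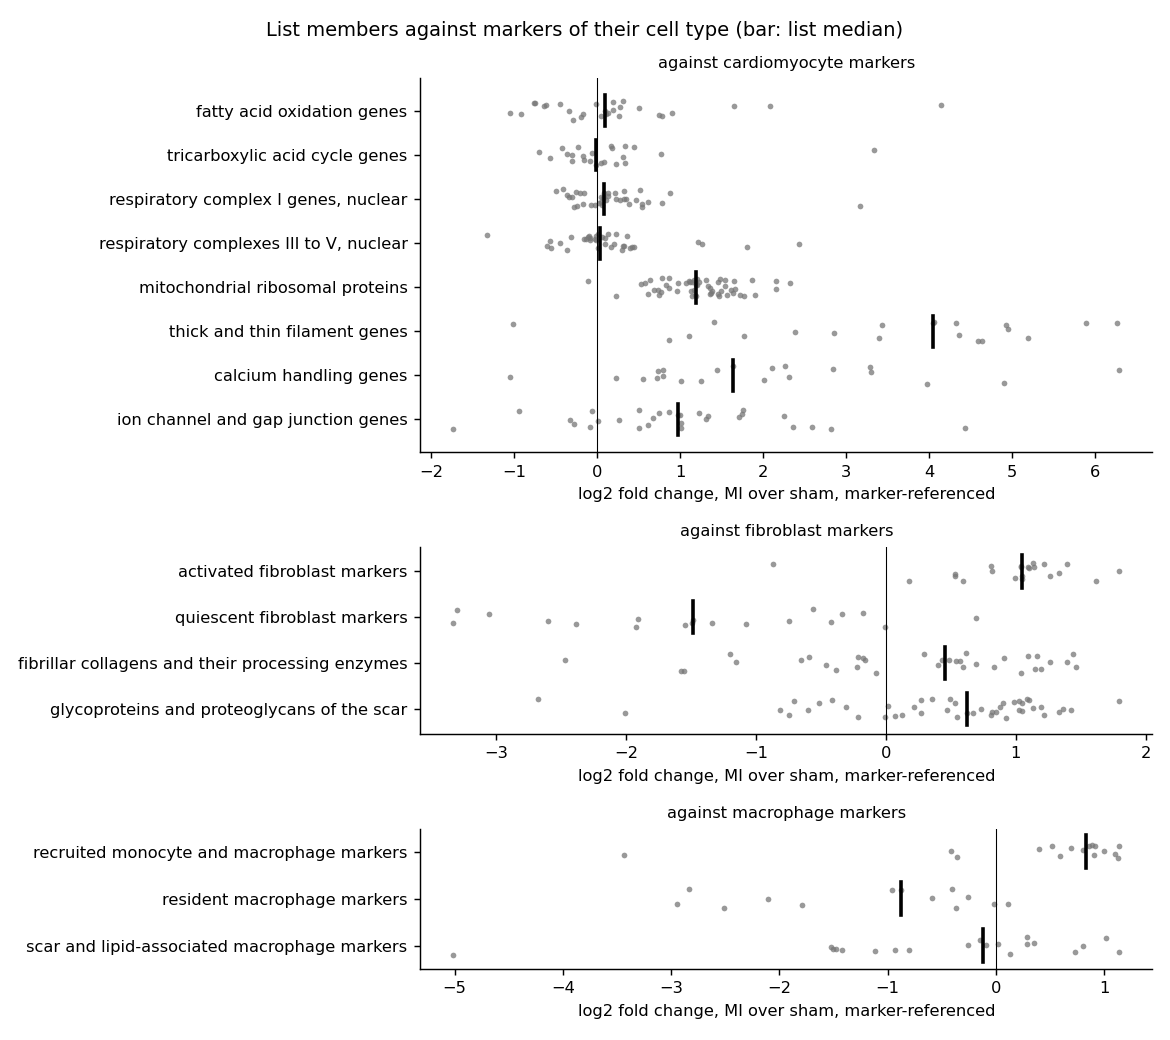
Log2 fold change of MI over sham after each library was set to an equal mean log2 level of cardiomyocyte, fibroblast or macrophage markers, for the lists read on each scale, with 1 point per gene outside the reference and a bar at the list median. Energy lists centre near 0 against cardiomyocyte markers, with medians of -0.01 to 0.10. Against fibroblast markers the activated list centres at 1.05 and the resting list at -1.49, and against macrophage markers the recruited list centres at 0.83 and the resident list at -0.88. The median of all genes was 3.12 against cardiomyocyte, -1.43 against fibroblast and -2.04 against macrophage markers. The resting fibroblast list thus lies near the median of all genes.

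Contractile genes of myofibroblasts and smooth muscle were higher in 16 of 22 tested, lower in 3 and past neither threshold in 3. Acta2, smooth muscle actin, had 991, 766, 486 and 763 CPM in MI hearts, against 301, 339 and 297 CPM in sham hearts (log2 fold change 1.27 ± 0.27), and Cnn1, calponin, rose by 3.19 ± 0.23 to 95.6 ± 24.2 CPM in MI hearts against 10.4 ± 1.8 CPM in sham hearts. Of the 3 lower members, Tpm1 is also a main thin filament gene of the heart muscle (fell by 1.92), and Smtn fell by 1.86.

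Signals that drive scar formation also changed. TGF-beta and activin pathway genes were higher in 29 of 36 tested, lower in 3 and past neither threshold in 4, with a median log2 fold change of 1.17. Among the 3 ligands Tgfb3 rose by 2.23, Tgfb2 by 1.44 and Tgfb1 by 0.56, and Tgfb1 over Tgfb2 was 0.0445 to 0.0757 in MI hearts and 0.0878 to 0.123 in sham hearts. Tgfb1 was low, with 2.17 to 3.25 CPM in MI hearts and 1.63 to 2.27 CPM in sham hearts, and lost its call without sham replicate 1 or 2. The receptor gene Tgfbr1 rose by 1.72 and the activin subunit gene Inhba by 2.44. Fst, the secreted activin antagonist follistatin, had 41.9, 34.1, 38.0 and 62.1 CPM in MI hearts, against 3.02, 3.85 and 5.03 CPM in sham hearts (log2 fold change 3.47 ± 0.41). Wnt pathway genes were higher in 18 of 32, lower in 2 and past neither threshold in 12. The higher members were led in level by secreted antagonists, namely Sfrp1, Sfrp2, Frzb (log2 fold change 2.66) and Dkk3 (2.82). Integrin and matrix receptor genes were higher in 22 of 28, with Itga11, a collagen receptor of fibroblasts, up by 2.73 and Itgb5 by 1.96, and lower in 4, among them the muscle protein gene Itgb1bp2 (fell by 2.90).

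Of 23 macrophage markers 21 were higher and 0 lower in edgeR, with a median log2 fold change of 2.02. The count of lower markers was also 0 at an unadjusted p under 0.05, in DESeq2 and in limma-voom. Adgre1, the F4/80 antigen, had 51.4, 48.4, 43.5 and 56.8 CPM in MI hearts, against 11.3, 10.5 and 11.8 CPM in sham hearts (log2 fold change 2.16 ± 0.17). Lyz2, lysozyme, averaged 5523 ± 912 CPM in MI hearts and 1219 ± 103 CPM in sham hearts, and Lgals3, galectin 3, averaged 921 ± 278 CPM in MI hearts and 98.0 ± 15.2 CPM in sham hearts (SD, n = 4 and 3). The 2 markers that were not called, Pf4 and Cd163, are genes of tissue-resident macrophages (and of platelets, for Pf4). Pf4 averaged 150 ± 35 CPM in MI hearts and 155 ± 23 CPM in sham hearts.

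Recruited and resident macrophage genes parted. Markers of recruited monocytes and macrophages were higher in 15 of 16 (median log2 fold change 2.88) and resident markers in 8 of 13, with a median of 1.31. Ccr2, the chemokine receptor of blood monocytes, had 20.5, 21.1, 23.6 and 31.0 CPM in MI hearts, against 2.40, 3.14 and 4.34 CPM in sham hearts (log2 fold change 2.87 ± 0.27, edgeR adjusted p = 1.2e-07). Plac8 rose by 3.18 and Ly6c2, a surface antigen of young monocytes, by 3.28. Nos2, the inducible nitric oxide synthase, was the 1 lower recruited marker, at 0.495 to 1.08 CPM in MI hearts and 1.57 to 2.14 CPM in sham hearts. Lyve1, a resident marker also made by lymphatic vessels, had 7.36, 10.3, 20.4 and 26.6 CPM in MI hearts and 16.9, 20.9 and 24.3 CPM in sham hearts, with overlapping groups and no call. Per Adgre1 transcript, Ccr2 was 1.65-fold higher, at 0.192 to 0.262 in MI hearts and 0.102 to 0.177 in sham hearts, and Lyve1 was 6.4-fold lower, at 0.159 to 0.520 in MI hearts and 1.66 to 2.28 in sham hearts. Against the mean of 8 broad macrophage markers (median of all genes -2.04, 0.879% of genes higher and 83.7% lower), recruited markers had a median of 0.83 with 6 of 16 higher and 1 lower. Resident markers had a median of -0.88 with 8 of 13 lower. Genes of lipid-handling scar macrophages were higher in 19 of 20, led in level by Apoe and including Spp1, osteopontin, with 708 to 1576 CPM in MI hearts and 94.6 to 247 CPM in sham hearts. Trem2 rose by 2.52, but Trem2 over Adgre1 overlapped between the groups (1.26 to 2.63 in MI hearts, 1.29 to 1.80 in sham hearts). The 1 lower member, Lpl, is a lipase that muscle also makes, and it fell by 2.86.

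All 19 tested neutrophil markers rose. Their median log2 fold change was 3.29, the largest of the 64 lists. S100a8, an abundant protein of neutrophils, had 75.3, 567, 605 and 148 CPM in MI hearts, against 27.8, 32.6 and 36.9 CPM in sham hearts (log2 fold change 3.43 ± 0.55, edgeR adjusted p = 3.6e-05). MI replicates 2 and 3 were thus several times above MI replicates 1 and 4, and the lowest MI heart was still above the highest sham heart. The granule gene Camp had 86.9 CPM in MI replicate 2 and 7.33 to 16.6 CPM in the other MI hearts, against 1.52 to 4.25 CPM in sham hearts, and its log2 fold change of 3.34 was 1.89 without that heart. The cytokine gene Il1b had 20.4 CPM in MI replicate 3, 1.58 to 3.51 CPM in the other MI hearts and 0.308 to 1.52 CPM in sham hearts. Its log2 fold change of 3.14 was 1.52 without MI replicate 3 and 4.02 without sham replicate 3. Without MI replicate 3, 16 of the 19 neutrophil markers were higher, with a median of 2.73. The count was also 16 without sham replicate 1 or 2, 17 without sham replicate 3 and 18 without MI replicate 4. The MI and sham hearts did not overlap for 13 of the 19, and for 67.5% of all genes tested. The defining marker Ly6g was under 1 CPM in every heart and was not tested.

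B and plasma cell genes were higher in 18 of 23 tested, but in 11 without MI replicate 4, without sham replicate 1 or without sham replicate 2. Igkc, the kappa light chain constant region, had 255, 709, 620 and 5105 CPM in MI hearts and 53.4, 75.2 and 404 CPM in sham hearts, with overlapping groups, and its log2 fold change of 3.24 was 1.57 without MI replicate 4 and 4.70 without sham replicate 3, and its call was lost without MI replicate 4, sham replicate 1 or sham replicate 2. T and NK cell genes were higher in 21 of 27. The T cell receptor subunit gene Cd3g had 6.75, 5.34, 8.84 and 10.9 CPM in MI hearts, against 1.48, 1.37 and 1.93 CPM in sham hearts, and Nkg7, a granule gene of cytotoxic cells, rose by 2.15. Ctla4, an inhibitory receptor of T cells, was lower, with a log2 fold change of -2.13. Dendritic cell genes were higher in 14 of 16, with Ccl17 at 11.3 to 20.7 CPM in MI hearts and 1.42 to 2.27 CPM in sham hearts. Genes of MHC class II and antigen presentation were higher in 26 of 28 (median log2 fold change 1.51), with H2-Aa and Cd74 up by 2.08 and 1.61. Mast cell and eosinophil genes were higher in 6 of 11 tested and lower in 4 (median log2 fold change 0.88). Without MI replicate 4 or sham replicate 2, 2 were higher, and without sham replicate 1 or 3, 3 were. The 4 lower members were mast cell protease genes, among them Cma1 at 1.92 to 5.01 CPM in MI hearts and 6.73 to 14.7 CPM in sham hearts, a fall of 1.46 that was 0.38 with total-count scaling, where all 4 lost their call.

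Interferon response genes were higher in 37 of 38 tested, with a median log2 fold change of 1.52. These genes encode antiviral proteins and are switched on by interferons through a DNA element, the interferon-stimulated response element. Ifit1, which binds foreign RNA, had 106, 81.0, 73.5 and 95.3 CPM in MI hearts, against 25.3, 20.4 and 20.4 CPM in sham hearts (log2 fold change 2.01 ± 0.16, edgeR adjusted p = 1.5e-08). Its neighbour Ifit3 had 188, 126, 126 and 179 CPM in MI hearts, against 41.9, 34.0 and 35.9 CPM in sham hearts (2.05 ± 0.15), although reads of Ifit3 and of its near copy Ifit3b may have been shared. Irf7, a factor that amplifies the response, rose by 2.13 ± 0.12 and Zbp1, a sensor of nucleic acid, by 2.69 ± 0.11. Cxcl9, a chemokine induced by interferon gamma, was the 1 member without a call, at 13.4 to 19.7 CPM in MI hearts and 14.0 to 19.8 CPM in sham hearts. Cxcl10, by contrast, rose by 2.63.

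The response element was looked for in the promoters as the letters GAAA, any 2 bases and GAAA again, on both strands, from 250 bases before to 50 bases after each RefSeq start site (GRCm38.p6). It was found for 21 of the 30 list genes with a promoter in the table (70.0%), against 1079 of 27025 genes (3.99%). The promoters of Ifit1 and Ifit3 are shown because these genes were among the called members with a match that rose most. Each holds the letters 2 times, in capitals, where they read on the opposite strand as TTTC, 2 bases and TTTC. Both lie on the plus strand of chromosome 19, Ifit1 at chr19:34640639-34640938 and Ifit3 at chr19:34583279-34583578.
Ifit1: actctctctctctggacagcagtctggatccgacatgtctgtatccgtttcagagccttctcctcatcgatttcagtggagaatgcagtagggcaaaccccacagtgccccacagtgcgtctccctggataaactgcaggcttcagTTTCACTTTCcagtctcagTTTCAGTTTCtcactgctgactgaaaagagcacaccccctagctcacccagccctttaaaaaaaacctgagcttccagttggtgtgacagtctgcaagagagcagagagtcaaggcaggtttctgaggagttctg
Ifit3: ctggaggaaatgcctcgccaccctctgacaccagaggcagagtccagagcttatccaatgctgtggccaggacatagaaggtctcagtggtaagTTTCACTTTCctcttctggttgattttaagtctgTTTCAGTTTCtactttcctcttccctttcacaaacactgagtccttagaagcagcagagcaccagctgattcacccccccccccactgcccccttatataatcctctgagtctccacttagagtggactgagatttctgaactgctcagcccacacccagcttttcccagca
The match is a description of these letters and not of a bound factor. An extended half-site of oestrogen-related receptors, TNAAGGTCA, was found for 0 of 26 fatty acid oxidation genes, 1 of 20 tricarboxylic acid cycle genes, 1 of 33 complex I genes and 1 of 28 genes of complexes III to V, against 1.43% of all genes.

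Complement genes were higher in 21 of 23 tested, with a median log2 fold change of 1.79. C4b had 42.7, 73.7, 64.2 and 71.8 CPM in MI hearts, against 5.73, 9.41 and 9.65 CPM in sham hearts, and C3 rose by 1.57. Cd59a, which guards cells against lysis, was the 1 lower member (fell by 1.52). Chemokine and receptor genes were higher in 28 of 38, lower in 2 and past neither threshold in 8. Ccl8 had 338, 577, 671 and 731 CPM in MI hearts, against 40.0, 58.4 and 86.5 CPM in sham hearts, and the monocyte attractant Ccl2 rose by 1.37. The 2 lower members were Ccl24, an eosinophil attractant of resident macrophages (fell by 1.77), and the scavenger receptor gene Ackr3 (fell by 1.38). Interleukin and TNF family genes were higher in 28 of 39, lower in 3 and past neither threshold in 8. Il33, an alarm signal of stromal nuclei, had 24.2, 40.1, 53.3 and 48.9 CPM in MI hearts, against 10.3, 9.47 and 15.6 CPM in sham hearts, while Il15 fell by 2.24 and Tnf was not called (log2 fold change 0.61 ± 0.39).

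**Figure D5:**
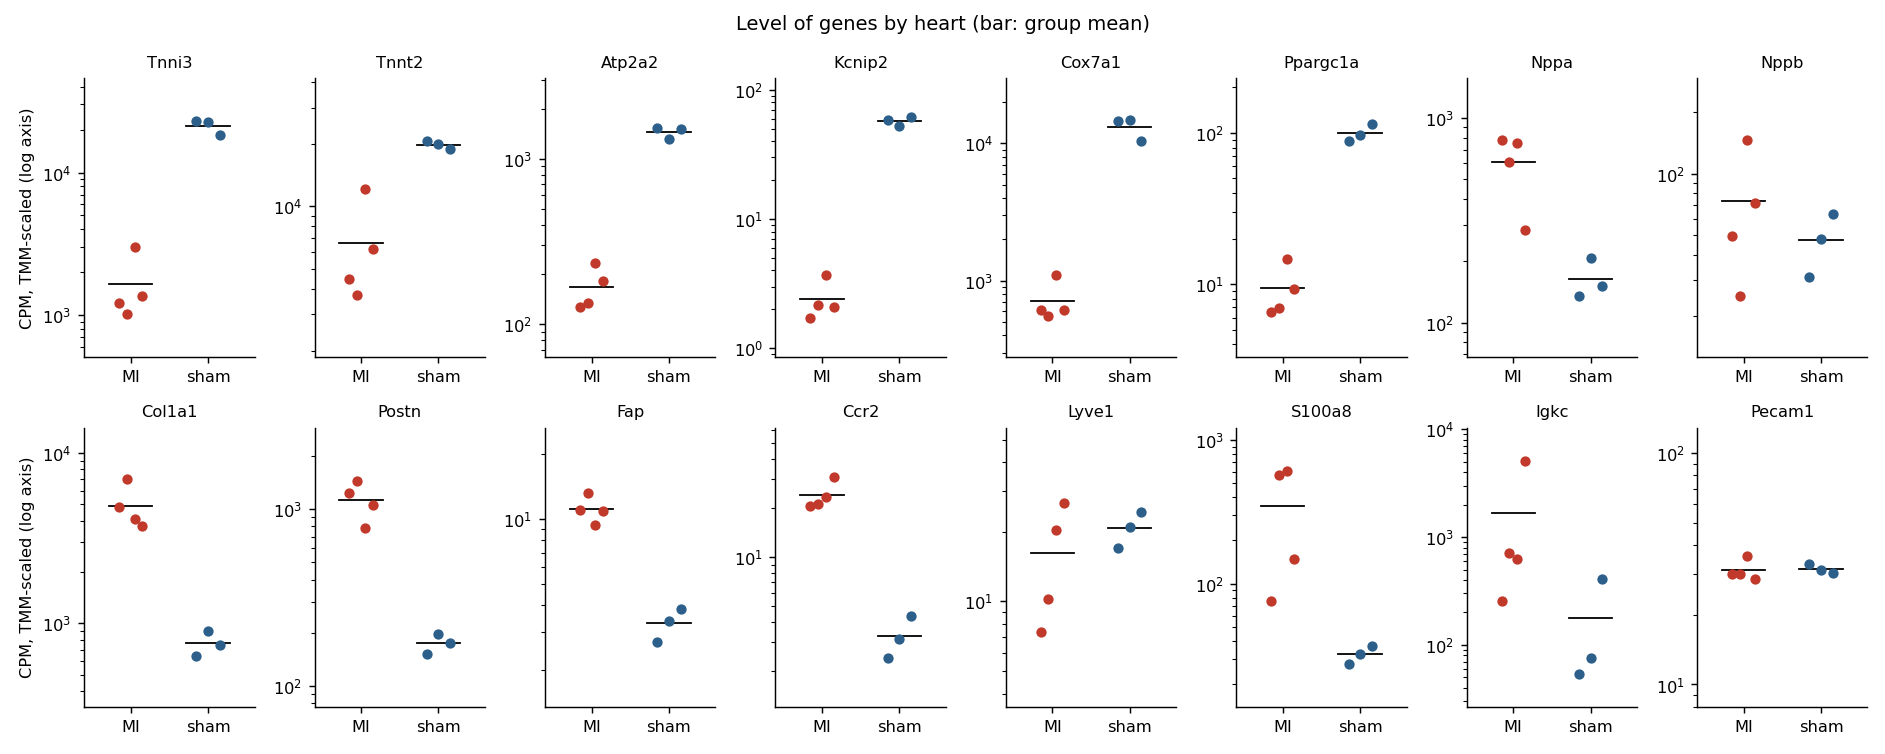
TMM-scaled CPM on a log axis of 16 genes in each heart, with 1 point per heart, MI left of sham, and a bar at each group mean. Tnni3 lies at 1014 to 3001 CPM in MI hearts and 18343 to 22844 CPM in sham hearts, Postn at 785 to 1436 and 152 to 198 CPM, and the groups overlap for Nppb, Lyve1, Igkc and Pecam1.

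Of 26 endothelial markers, 5 were higher, 13 lower and 8 past neither threshold, with a median log2 fold change of -0.47. With total-count scaling 18 were higher and 3 lower, with a median of 0.61. Of all genes tested 74.2% were called higher and 11.9% lower on that scale, with a median of 1.23. On the TMM scale the summed level of the endothelial markers was 1438 to 1935 CPM in MI hearts and 2675 to 2784 CPM in sham hearts, so every MI heart lay below every sham heart. The pan-endothelial gene Pecam1 had 29.9, 29.9, 36.0 and 28.4 CPM in MI hearts and 33.1, 31.2 and 30.3 CPM in sham hearts (log2 fold change -0.02 ± 0.10), and Cdh5 likewise was not called (-0.07 ± 0.11). Set over Pecam1, the VEGF receptor genes Kdr and Flt1 had lower ratios, Kdr at 0.200 to 0.257 in MI hearts and 0.357 to 0.438 in sham hearts and Flt1 at 0.256 to 0.318 in MI hearts and 0.362 to 0.414 in sham hearts. Car4, a carbonic anhydrase of capillaries, had 2.17, 1.93, 4.73 and 2.43 CPM in MI hearts, against 53.4, 48.0 and 43.7 CPM in sham hearts (log2 fold change -4.10 ± 0.31, edgeR adjusted p = 1.1e-08). Plvap, the diaphragm protein of leaky vessels and venules, rose by 1.95 ± 0.15 and Vwf by 0.97 ± 0.22. Of the angiogenic ligands, Vegfb, which muscle makes, fell by 2.39, and Vegfd and Angpt2 rose by 2.37 and 1.82. Pericyte markers were lower in 9 of 14 and higher in 3, with a median of -0.90 (0.19 with total-count scaling). Kcnj8, a channel of pericytes, had 12.3, 13.4, 19.3 and 16.2 CPM in MI hearts, against 89.0, 73.0 and 64.8 CPM in sham hearts, while Pdgfrb, which fibroblasts share, rose by 1.35. Rgs5 fell by 0.95, and its log2 fold change was 0.14 with total-count scaling.

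Markers of tissue other than ventricle, scar and vessel also differed between the groups, and their part in the results above was not tested. Adipocyte genes were higher in 9 of 17 and lower in 7. The fat hormone gene Adipoq had 53.2, 79.8, 83.1 and 91.4 CPM in MI hearts, against 4.31, 7.45 and 10.3 CPM in sham hearts, and Car3 had 354 to 796 CPM in MI hearts and 27.0 to 69.4 CPM in sham hearts. The complement gene Cfd, which fat makes in quantity, rose with them, to 324 to 632 CPM in MI hearts against 25.6 to 67.8 CPM in sham hearts. The summed level of the list was 1576 to 2734 CPM in MI hearts and 1869 to 2013 CPM in sham hearts. Fabp4, which capillaries also make, was lower on the TMM scale (774 ± 133 CPM in MI hearts and 1551 ± 51 CPM in sham hearts) and not with total-count scaling. Haemoglobin genes fell, with Hba-a1 at 351 to 891 CPM in MI hearts and 1620 to 5401 CPM in sham hearts, and 9 of 12 erythroid and platelet genes were lower and 0 higher in edgeR (1 higher at an unadjusted p under 0.05, and 0 in DESeq2 and in limma-voom). Without sham replicate 1, 6 were lower and 2 higher. Skeletal muscle genes had a median log2 fold change of 2.60 that became -0.555 without MI replicate 2. Only 6 of 20 epicardial and mesothelial genes were called, all higher, and the mesothelial markers Msln, Upk3b and Wt1 were not.

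Cell cycle and DNA replication genes were higher in 32 of 47 tested, lower in 6 and past neither threshold in 9, with a median log2 fold change of 0.75. The proliferation marker Mki67 had 9.25, 13.3, 9.24 and 5.66 CPM in MI hearts, against 3.82, 2.87 and 3.86 CPM in sham hearts (log2 fold change 1.42 ± 0.26), and Top2a rose by 1.32. Without sham replicate 2, 20 of the 47 were higher. Cdkn2b, an inhibitor of division, was at 12.8 to 23.4 CPM in MI hearts and 1.79 to 2.16 CPM in sham hearts (log2 fold change 3.18 ± 0.27), and Cdkn1a, another, was at 364 ± 80 CPM in MI hearts and 130 ± 1 CPM in sham hearts (1.49 ± 0.18). Ccnd1, a G1 cyclin, fell by 1.44 and Cenpf by 1.70.

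Redox genes moved both ways. The counts of this paragraph stand beside shares over all genes tested of 37.1% called higher and 32.0% called lower. Of 31 antioxidant genes, 13 were higher, 14 lower and 4 past neither threshold. The mitochondrial enzyme genes Sod2 and Prdx3 fell, with Sod2 at 194 ± 76 CPM in MI hearts and 1611 ± 169 CPM in sham hearts and Prdx3 down by 2.53. The secreted peroxidase Gpx3 rose by 2.03 ± 0.24 and Nox4, an oxidase of fibroblasts, by 2.88 ± 0.23. Hypoxia response genes were higher in 11 of 26 and lower in 11, with Hif1a up by 0.85 and the mitochondrial gene Higd1a down by 2.33. Integrated stress and unfolded protein response genes were higher in 20 of 30, led by Phgdh of serine synthesis, with 26.6, 22.2, 13.3 and 27.9 CPM in MI hearts, against 3.57, 3.92 and 3.17 CPM in sham hearts, while the folding sensor target Herpud1 fell by 1.31. Circadian genes were lower in 9 of 19 and higher in 2, with a median of -0.29 (0.79 with total-count scaling). The output gene Dbp fell by 1.82 and the core activator gene Arntl rose by 1.58. Immediate early genes were higher in 8 of 24 and lower in 8, and Nr4a1, a nuclear receptor induced by stimulation, fell to 8.38 ± 2.27 CPM in MI hearts against 77.1 ± 16.5 CPM in sham hearts.

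Natriuretic peptide and cGMP genes were higher in 10 of 24 and lower in 6, where 37.1% of all genes tested were called higher and 32.0% lower. Apart from the peptides, Gucy1a1, a subunit of the nitric oxide receptor, rose by 1.95 ± 0.24, and Pde1c, a phosphodiesterase of muscle, fell by 2.42 ± 0.29. Genes of the renin-angiotensin and aldosterone pathway were higher in 6 of 15 and lower in 5, with a median of -0.21 (0.89 with total-count scaling), and 3 were higher without sham replicate 1 and 3 lower without MI replicate 2 or sham replicate 2. Agtr1a, the main angiotensin II receptor, had 3.65, 3.48, 5.97 and 4.32 CPM in MI hearts, against 40.8, 37.2 and 35.9 CPM in sham hearts (log2 fold change -3.13 ± 0.22, edgeR adjusted p = 6.3e-09). Ace, which makes angiotensin II, rose by 1.15 ± 0.17, and Nr3c2, the mineralocorticoid receptor, fell by 2.80 ± 0.43.

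Among genes of at least 10 CPM in the higher group with groups apart, the largest rise was that of Car3 on chromosome 3 (14863512 to 14872523, GRCm38), 14.4-fold. The B cell attractant Cxcl13 followed at 12.3-fold, with 28.8, 97.7, 64.9 and 330 CPM in MI hearts and 5.11, 5.75 and 21.1 CPM in sham hearts, and its log2 fold change of 3.62 was 2.59 without MI replicate 4 and 4.58 without sham replicate 3. Sprr1a, a small proline-rich protein gene known to be induced in stressed cardiomyocytes, lies on the minus strand of chromosome 3 (92483952 to 92485895). It had 741, 350, 569 and 898 CPM in MI hearts, against 40.8, 57.3 and 79.8 CPM in sham hearts (10.8-fold). The acute phase genes Hp and Saa3 were 11.1-fold and 10.4-fold higher, and the log2 fold change of Saa3, 3.38, was 2.75 without MI replicate 3 and 4.22 without sham replicate 3.

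The largest fall was 73.8-fold, of Gm28438, an annotated pseudogene on the minus strand of chromosome 1 (24612775 to 24613119). Gm28438 had 14.7, 15.1, 17.2 and 19.5 CPM in MI hearts and 1027, 1126 and 1526 CPM in sham hearts. It lies beside Gm10222 (24612407 to 24612700), which was 54.4-fold lower, in a stretch of chromosome 1 that resembles mitochondrial DNA, so both may share reads with mitochondrial genes and are uncertain. Aqp4, a water channel gene, was 49.2-fold lower, with 0.218 to 0.424 CPM in MI hearts and 11.5 to 19.8 CPM in sham hearts. Mlf1 was 28.1-fold lower at a high level, with 40.6, 35.2, 76.0 and 50.6 CPM in MI hearts, against 1647, 1322 and 1300 CPM in sham hearts. Dhrs7c, a reductase gene of the sarcoplasmic reticulum, was 24.0-fold lower. These falls exceeded that of any cardiomyocyte marker in the list above, where Cox8b fell by 3.80 on the log2 scale.

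Of the 10 genes of at least 10 CPM with the largest spread of log2 CPM over the 4 MI hearts, Sln, Mylpf, Myh3, Neb, Pvalb and Tnnt3 were highest in MI replicate 2, Iglc1 and Iglv1 in MI replicate 4 and Myl7 in MI replicate 3. Sln, the atrial and skeletal calcium pump inhibitor, had 5.32, 156, 48.6 and 1.08 CPM in MI hearts and 5.24, 8.88 and 3.72 CPM in sham hearts, and its log2 fold change of 3.15 was 1.63 without MI replicate 2 and lost its call without any 1 heart other than MI replicates 1 and 4. The tendon gene Tnmd, also among the 10, had 41.7 and 44.7 CPM in MI replicates 1 and 2, 2.64 and 3.74 CPM in MI replicates 3 and 4, and at most 3.92 CPM in sham hearts. Its log2 fold change of 3.40 was 4.11 without sham replicate 2.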

How the data were processed

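RNA was measured by RNA-seq in border zone tissue. Per the labels' protocols, libraries followed a modified Smart-seq2 with UMI barcodes. The authors deposited one table of raw counts per gene and library, made with STAR and HTSeq on mm10 per the submitters' processing notes. Versions, UMI collapse, strand and pooling were not stated in the sources available for this work. Totals were 18474138 to 25927151 counts in MI hearts and 20827206 to 25943873 in sham hearts. Exon lengths and coordinates are those of the GRCm38 annotation.

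The 15 heart libraries entered one edgeR 4.0.16 quasi-likelihood fit (R 4.3.3) with TMM factors and edgeR's low-count filter, which kept 17064 of 53801 genes, and MI was set against sham. The standard error is the log2 fold change over the square root of F. Marker-referenced fits set library factors to an equal mean log2 level of the reference genes. Ratios (0.5 counts added) and shares took exact permutation tests. DESeq2 1.42.0, limma-voom (limma 3.58.1), other scalings, filters, designs and the omission of each heart were tried. The main fit was run on simulated counts in which few of 15581 genes differed. It recovered 26.9% of 1.5-fold, 86.6% of 2-fold and 93.9% of 4-fold changes. The simulation cannot test the assumption of TMM for these hearts, where 69.1% of genes were called. No library was a copy of another. The members, lists and rules were chosen with earlier results of these data known. Genes named were the 15 largest rises and falls of at least 10 CPM with groups apart, the most abundant and most changed members of each list, both genes of each ratio, the natriuretic genes and Fap, and the 10 most variable genes among MI hearts. Others were chosen after their values were seen. In all, 6 columns of per-sample values that match no label were not used. A few results are not reported here.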

Additional observations from a re-analysis of the deposited data

Results flagged for a closer look

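Each value was compared among the 4 MI hearts by the gap of the highest or lowest heart to its neighbour, over the range of the 4. Of 330 values tested (shares, ratios, list levels and named genes), 28 exceeded Dixon's 95% critical value. Chance flags about 1 in 20 of values that were not chosen by their spread. That rate does not apply here, because 10 of the named genes were chosen for their spread among the same 4 hearts. Others were named after their values were seen. The sham hearts, 3 in number, were not tested.

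MI replicate 2 stood alone for skeletal muscle genes, with 243.8 CPM of Tnnt3 (11.3 to 28.6 in the other MI hearts), 292.7 of Mylpf, 104.6 of Neb, 48.2 of Pvalb, 45.2 of Myh3 and 50.8 of Tnni1. It also stood alone for the log2 ratio of Acta1 over Actc1, at -2.18 against -4.26 to -3.96, for the neutrophil granule gene Camp, at 86.9 CPM, and for Ddr2, at 14.98 CPM against 12.01 to 12.48.

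MI replicate 3 stood alone for muscle and energy genes, with 362.3 CPM of Myh6 (134.3 to 157.7 in the other MI hearts), 3312 of Myl2, 1527 of Myl3, 1139 of Tcap, 2034 of Cox6a2, 1093 of Cox7a1, 1029 of Cox8b, 972 of Fabp3, 2.93 of Ppara and 3946 of Ankrd1. It was also alone for 48.3 CPM of Myl7 and 20.4 CPM of Il1b, and low for Tgfb3 (49.3 CPM against 73.7 to 76.4), for Col8a1 (450.0 CPM against 641.9 to 673.2) and for the mean log2 level of TGF-beta and activin pathway genes (3.78 against 3.84 to 3.85).

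MI replicate 4 stood alone for immunoglobulin genes, with 5105 CPM of Igkc (255.1 to 708.7 in the other MI hearts), 522.0 of Iglc1 and 180.8 of Iglv1. MI replicate 1 was low for the log2 ratio of Myh7 over Myh6, at -3.96 against -3.43 to -3.35.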

How the results depend on the processing

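With total-count scaling 12663 genes were higher and 2037 lower, with the cardiomyocyte level covariate 534 and 244, and with a test for an absolute log2 fold change above 1 (glmTreat) 2223 and 2283, against 6331 and 5452 as reported. RLE scaling, TMM without abundant genes, both filters, DESeq2, limma-voom, the 7 hearts alone and each omitted heart kept both counts within 1.5 times. As a replicate block the replicate numbers gave 6280 and 5407 genes. Same-numbered MI and sham hearts did not all deviate together (correlations 0.377, 0.0638 and -0.023, against -0.376 to 0.168 for different numbers). So few values cannot decide whether the numbers pair the hearts. Macrophage-referenced list members higher ranged from 4 to 9 with 1 heart left out, the lowest without sham replicate 1. Outside mitochondrially encoded genes the MI minus sham share was -7.92 percentage points for cardiomyocyte markers, -6.92 for the 50 most abundant genes and -19.1 for the nuclear respiratory chain. The cause of these moves was not tested.

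Total-count scaling turned the median of thick and thin filament (0.67), beta-adrenergic (0.42), endothelial (0.61), pericyte (0.19), clock (0.79), renin-angiotensin (0.89) and sex-linked (0.93) genes, and the log2 fold changes of Acta1 (0.99), Cdh5 (1.01), Cox6a1 (0.52), Cxcl9 (1.08), Fabp4 (0.074), Flt1 (0.63), Kdr (0.25), Myh7 (0.070), Pecam1 (1.06), Pf4 (1.03) and Rgs5 (0.14). The filter of 1 CPM in 3 libraries turned the medians of mast cell and eosinophil (-0.28), immediate early (-0.14) and sex-linked (0.0011) genes. Leaving out 1 heart, a choice made for the lists after seeing the data, turned the medians of cytosolic ribosomal (at most 0.038, -0.008 without MI replicate 1, -0.018 without MI replicate 4, -0.051 without sham replicate 2), skeletal muscle (at most 3.05, -0.555 without MI replicate 2), antioxidant (at most 0.207, -0.026 without sham replicate 1) and immediate early genes (at most 0.13, -0.093 without MI replicate 3, -0.115 without sham replicate 1).

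With the covariate these log2 fold changes turned: Acta2 (-0.95), Actc1 (0.84), Adrb1 (0.16), Camp (-1.41), Casq2 (0.65), Chrm2 (0.31), Cma1 (0.16), Corin (1.33), Ctla4 (0.98), Fabp4 (0.11), Flt1 (0.72), Gata4 (0.45), Gja1 (0.20), Iglc1 (-1.61), Kcnj11 (0.27), Kdr (0.51), Ldha (0.41), Mybpc3 (2.21), Myh7 (2.54), Nkx2-5 (1.09), Pde1c (0.25), Ryr2 (1.31), Spp1 (-0.34), Tnc (-0.34), Tnmd (-3.74), Tnni1 (-1.69), Tnnt2 (1.45), Tpm1 (0.57), Trem2 (-0.12), Ttn (0.80) and Vegfb (0.10). Under that fit 127 of 232 named genes lost their call, and under the replicate block 2 did. No omitted heart turned a named gene. At a depth of at least 18474138 counts Ly6g, Bmp10 and Sftpc had too few counts to be tested.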
